A study of Mus musculus with 9 samples.

Results

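The E2F, cyclin and CDK genes are 48 genes of the cell cycle engine and of the related kinases that act on RNA polymerase II. They were taken by gene symbol from a fixed list, with no measured value used, and all 48 are among the 54325 gene symbols of the deposited table. RIP-seq (RNA immunoprecipitation followed by sequencing of RNase I fragments) was used in N2A cells, a mouse neuroblastoma line, to find RNA bound by phosphorylated UPF1 (p-UPF1). The 9 libraries fall into 3 groups of 3. They hold RNA recovered with antibody to p-UPF1 (p-UPF1 IP), RNA recovered with control rabbit IgG (rIgG IP), and input RNA without IP. Cells of all 3 groups had been exposed for 2 h to the phosphatase inhibitor okadaic acid at 200 nM, so no library shows cells without it. The labels do not say whether replicates came from separate cultures, so p-values measure only the spread between these libraries, which may be technical.

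Nonsense-mediated mRNA decay (NMD) removes transcripts on which translation ends too early, for example at a stop codon well upstream of the last exon-exon junction. UPF1 is the RNA helicase at its centre, and its phosphorylated form marks RNA that is being committed to decay. In the cell cycle, cyclins activate cyclin-dependent kinases (CDKs), these phosphorylate the pocket proteins of the retinoblastoma family, and E2F transcription factors are then free to switch on genes of DNA synthesis.

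Input libraries held 25184464 to 29857955 counts, p-UPF1 IP libraries 5312526 to 6246110 and rIgG IP libraries 79010 to 474491. The rIgG IP libraries therefore stood apart in depth, and 3 counts in them correspond to 6.32 to 38 CPM (counts scaled to a fixed library total), against 0.48 to 0.565 CPM in the p-UPF1 IP and 0.1 to 0.119 CPM in input. In each library the 10 most-counted features took 76.8% to 82.3% of all counts. Intervals and floors cover counting error only, since PCR copies are not independent molecules. Summed, the 48 genes took 383.5 to 393.6 CPM of input, 635.6 to 663 CPM of the p-UPF1 IP and 290.8 to 329.1 CPM of the rIgG IP. The sympathetic neuroblast marker Hand2 and the neuronal markers Stmn2 and Tubb3 were detected in each input library. The 14 markers of other cell types summed to 4.09 to 4.76 CPM in input and 14.4 to 16.8 CPM in the p-UPF1 IP (0 to 12.7 CPM in the rIgG IP), with Alb and Myh6 at 0 in both and Mbp the most-counted in the p-UPF1 IP. The part of these markers in the results was not tested.

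For Ccnl1 and Ccnl2, which encode the L-type cyclins found with splicing factors, the annotation holds transcripts with a premature stop codon beside the coding transcripts, and the results below turn on them. The sequences show 30 bases around both stop codons of Ccnl1 and the premature stop codon of Ccnl2 (capitals), from GENCODE M21 transcripts on GRCm38. In Ccnl1 the coding stop lies at chr3:65946600-65946602 (minus strand), in the last of the 11 exons of ENSMUST00000029416.13. The premature stop, shared by 5 transcripts annotated as NMD targets, lies at chr3:65955246-65955248. In ENSMUST00000129002.7 that is exon 4 of 12, and the stop is 860 nt upstream of the last exon-exon junction. In Ccnl2 the premature stop lies at chr4:155818558-155818560 (plus strand), in exon 4 of 10 of ENSMUST00000126346.1, 653 nt upstream of the last junction. Neither premature window occurs in a coding transcript of its gene.
Ccnl1 coding stop: ggcaggcataggcgcTGActttcatcctct
Ccnl1 premature stop: ttaccaaagcctgggTGAtgtggagtggta
Ccnl2 premature stop: gcctctgagggtaagTGActaagacttctc

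The first comparison, p-UPF1 IP over input, asks which of these RNAs were over- or under-represented among RNA bound by p-UPF1, with counts summed over the transcripts of each gene. The 6 libraries of both groups were scaled by TMM and tested with edgeR's quasi-likelihood method, and adjusted p is the Benjamini-Hochberg value over all genes tested. A gene is called higher or lower at an adjusted p under 0.05, and enriched or depleted if its log2 fold change is also above 1 or below -1. Of the 48 genes, 46 passed a summed count of at least 10, while Ccnd2 (1 count in all 6 libraries) and Cdk6 (3 counts) did not, so this D-type cyclin and this partner of the D-type cyclins stood at the limit of detection. Of the 46, 18 were higher (39.1%, against 26.3% of 16919 genes) and 16 lower (34.8%, against 35.7%). Past the fold threshold, 9 were enriched (19.6%, against 17.2%) and 11 depleted (23.9%, against 26.5%), so that the shares past the fold threshold lay near those of all genes. The median log2 fold change was 0.15 for the 46 genes and -0.42 for all genes. With library totals in place of TMM the median of all genes moved up by 0.41, and the split of calls became 27 higher and 13 lower. Relative to the median of all genes, which does not depend on that choice, 32 of the 46 lay above and 14 below. The median of all genes did depend on the filter for low counts. It was -0.11 with filterByExpr (12178 genes) and -1.42 without a filter, where the E2F, cyclin and CDK genes had medians of 0.15 and 0.14.

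**Figure D1:**
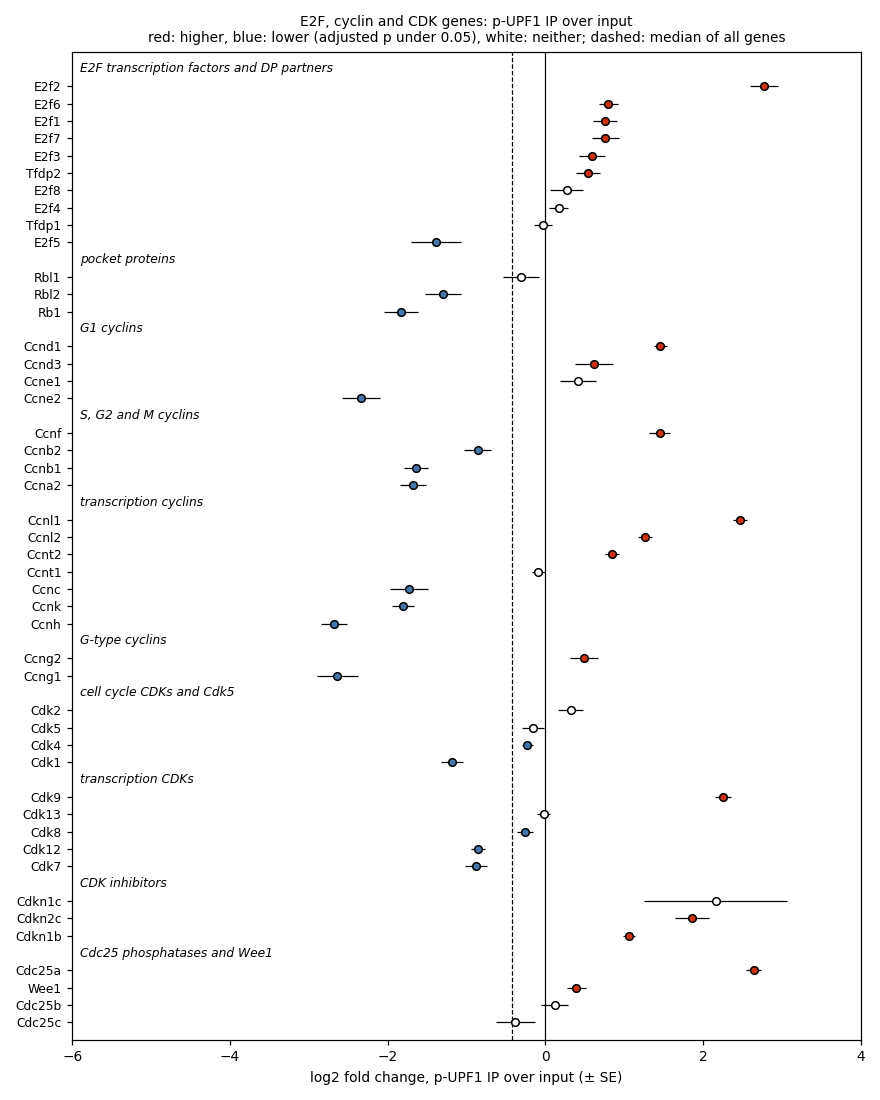
Log2 fold change of the 46 tested genes in the p-UPF1 IP over input (x axis, bars are SE, 3 libraries a group), grouped by role. Red points passed as higher, blue as lower and white as neither, and the dashed line is the median of all genes at -0.42. The CDK inhibitors and most E2F genes lie right of 0, and Ccnh, Ccng1 and Ccne2 lie farthest left. The point of Cdkn1c rests on 5 counts in the input libraries.

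The E2F genes encode the transcription factors that set the G1 to S transition, and Tfdp1 and Tfdp2 encode the DP proteins with which most of them bind DNA. Of these 10 genes, 6 were higher, 1 was lower and 3 did not pass, with a median of 0.56. Among all genes 26.3% were higher and 35.7% lower (17.2% enriched and 26.5% depleted), shares that also stand beside the counts of the roles below. Over the rIgG IP, a comparison given below, 2 of the 10 were higher (E2f2 and E2f6). Both of those calls were lost with RLE factors, DESeq2 and filterByExpr. E2f2, an activator of S-phase genes, had 2.65, 1.79 and 1.85 CPM (here and below TMM-scaled) in input, against 17.1, 12.3 and 13.8 CPM in the p-UPF1 IP. The groups lay far apart, and the log2 fold change of 2.77 ± 0.18 (SE, edgeR adjusted p = 4.47e-07) was the highest among the 46 genes. The other activators were higher by less, E2f1 at 0.76 ± 0.15 (edgeR adjusted p = 0.0014) and E2f3 at 0.59 ± 0.16 (edgeR adjusted p = 0.0107). E2f1 had 4.3, 4.2 and 4.62 CPM in input and 6.1, 7.27 and 8.73 CPM in the p-UPF1 IP, without overlap.

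Among the repressors, E2f6, which acts without pocket proteins, was higher at 0.80 ± 0.12 (edgeR adjusted p = 0.000202). E2f7, an atypical E2F that needs no DP partner, had 4.39, 3.26 and 4.86 CPM in input and 7.62, 6.59 and 7.04 CPM in the p-UPF1 IP. Its log2 fold change was 0.76 ± 0.17 (edgeR adjusted p = 0.00351). E2f8, its close relative, did not pass at 0.27 ± 0.21. Nor did E2f4, a partner of the pocket proteins, at 0.17 ± 0.12. With library totals both passed as higher, at 0.68 and 0.58. E2f5, the other such partner, was the single lower E2F gene, from 3.39 to 3.82 CPM in input to 0.549 to 2.03 CPM in the p-UPF1 IP. Its log2 fold change was -1.39 ± 0.32 (edgeR adjusted p = 0.00336), on 4 to 12 counts in each p-UPF1 IP library.

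The DP partners differed in their calls. Tfdp2 had 5.3, 4.91 and 6.23 CPM in input and 9.32, 7.13 and 7.61 CPM in the p-UPF1 IP, and was higher at 0.54 ± 0.15 (edgeR adjusted p = 0.00973). Tfdp1 had 22.6, 17.6 and 23.6 CPM in input and 20.3, 20.7 and 21.4 CPM in the p-UPF1 IP. Its groups overlapped, its log2 fold change was -0.03 ± 0.12, and with library totals it turned to 0.38. Of the 35-nt windows of its transcripts, 32.3% also occur in transcripts of other gene symbols, so its counts are uncertain. The difference between the DP genes was not tested.

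The pocket proteins bind E2F factors and hold them inactive until CDKs phosphorylate them. Both Rb1, the retinoblastoma gene, and Rbl2, which encodes p130, were depleted, and the 3 genes had a median of -1.30. Rb1 had 6.04, 5.89 and 6.55 CPM in input and 2.37, 1.1 and 1.83 CPM in the p-UPF1 IP, a log2 fold change of -1.83 ± 0.22 (edgeR adjusted p = 3.92e-05). Rbl2 had 3.13, 4.33 and 3.9 CPM in input and 1.86, 1.37 and 1.41 CPM in the p-UPF1 IP, a log2 fold change of -1.30 ± 0.23 (edgeR adjusted p = 0.000696). In both genes every p-UPF1 IP library lay under every input library. Rbl1, which encodes p107, had 2.87, 2.86 and 3.58 CPM in input and 2.2, 3.29 and 1.97 CPM in the p-UPF1 IP, and did not pass at -0.31 ± 0.23 (0.11 with library totals). Antisense transcripts of other genes match 11.1% of the windows of Rb1 and 16.8% of those of Rbl2, and the strand setting of the counting is not given in the sources used here.

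The G1 cyclins are the D-type cyclins, which activate Cdk4 and Cdk6, and the E-type cyclins, which activate Cdk2. Of 5 genes, 2 were higher, 1 was lower, 1 did not pass and Ccnd2 was not tested. Ccnd1, cyclin D1, had 30.5, 27.2 and 28 CPM in input and 84.7, 76.8 and 75.2 CPM in the p-UPF1 IP, so that each p-UPF1 IP library held more than any input library. Its log2 fold change was 1.46 ± 0.08 (edgeR adjusted p = 9.96e-08), with antisense matches in 17.6% of its windows. Ccnd3 had 1.35 to 1.81 CPM in input and 2.2 to 2.68 CPM in the p-UPF1 IP, and passed narrowly at 0.62 ± 0.24 (edgeR adjusted p = 0.0455). That call was lost with DESeq2, no filter, all 9 libraries in one fit, and when p-UPF1 IP replicates 1 or 3, or those numbered 1 or 2 of input, were left out.

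The E-type cyclins stood on opposite sides of 0. Ccne1 had 2.48, 1.96 and 3.13 CPM in input and 3.73, 3.29 and 3.1 CPM in the p-UPF1 IP, and its log2 fold change of 0.41 ± 0.23 did not pass. Ccne2 was depleted, from 4.96, 5.89 and 6.43 CPM in input to 0.678, 1.23 and 1.41 CPM in the p-UPF1 IP. Its log2 fold change was -2.34 ± 0.24 (edgeR adjusted p = 1.31e-05), with 4 to 10 counts in each p-UPF1 IP library and antisense matches in 15.5% of its windows.

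The cyclins of S phase, G2 and mitosis were lower, apart from Ccnf. Ccna2, cyclin A2, which serves Cdk2 and Cdk1, had 12.9, 12.5 and 16.4 CPM in input and 5.25, 3.84 and 4.09 CPM in the p-UPF1 IP, a log2 fold change of -1.68 ± 0.17 (edgeR adjusted p = 8.95e-06). The mitotic cyclins Ccnb1 and Ccnb2, which activate Cdk1, were lower at -1.64 ± 0.15 (edgeR adjusted p = 6.33e-06) and -0.86 ± 0.17 (edgeR adjusted p = 0.00143). Ccnb2 did not pass with library totals, and 45.5% of the windows of Ccnb1 also occur in transcripts of other gene symbols. Ccnf, cyclin F, is an F-box protein of a ubiquitin ligase and activates no known CDK. It had 4.35, 4.28 and 4.3 CPM in input and 12.5, 9.88 and 13.1 CPM in the p-UPF1 IP, and was enriched at 1.45 ± 0.13 (edgeR adjusted p = 4.18e-06).

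The transcription cyclins bind kinases that act on RNA polymerase II, and they spread over almost the whole range of the 46 genes, with 3 of 7 higher and 3 lower. Ccnl1 had 10.4, 10 and 9.52 CPM in input and 57.8, 57.9 and 49.7 CPM in the p-UPF1 IP. The log2 fold change was 2.47 ± 0.09 (edgeR adjusted p = 6.52e-09). Ccnl2 had 7.74, 7.05 and 7.67 CPM in input and 16.8, 19.5 and 17.3 CPM in the p-UPF1 IP, a log2 fold change of 1.26 ± 0.09 (edgeR adjusted p = 1.18e-06). In both L-type cyclins the replicates lay close together and the groups far apart.

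Ccnt1 and Ccnt2 encode the cyclins of P-TEFb, the kinase that releases paused polymerase. Ccnt2 was higher at 0.85 ± 0.09 (edgeR adjusted p = 1.25e-05), while Ccnt1 did not pass at -0.09 ± 0.08 and turned to 0.31 with library totals. The depleted genes were Ccnh, Ccnk and Ccnc. Ccnh, the cyclin of the Cdk7 kinase in TFIIH, had 9.55 to 11.1 CPM in input and 1.23 to 1.86 CPM in the p-UPF1 IP, and its log2 fold change of -2.68 ± 0.17 (edgeR adjusted p = 3.66e-07) was the lowest among the 46 genes. Ccnk, the partner of Cdk12 and Cdk13, had 11.8, 12.2 and 12.9 CPM in input and 2.71, 3.84 and 3.8 CPM in the p-UPF1 IP, a log2 fold change of -1.81 ± 0.14 (edgeR adjusted p = 1.13e-06). Ccnc, the partner of Cdk8 in Mediator, was at -1.73 ± 0.24 (edgeR adjusted p = 9.9e-05).

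The G-type cyclins are named by homology, and both are induced under stress or cell cycle arrest. Ccng2 had 4.78, 4.6 and 4.3 CPM in input and 8.47, 5.35 and 5.63 CPM in the p-UPF1 IP. It was higher at 0.49 ± 0.18 (edgeR adjusted p = 0.0351), a call that was lost without p-UPF1 IP replicate 1 or input replicate 3. Ccng1, a target of p53, went the other way, with 5.56 to 8.12 CPM in input and 0.847 to 1.27 CPM in the p-UPF1 IP. The log2 fold change was -2.64 ± 0.26 (edgeR adjusted p = 9.84e-06), on 5 to 9 counts in each p-UPF1 IP library.

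The cell cycle CDKs showed small differences, apart from Cdk1. Of 5 genes, none was higher and 2 were lower. Cdk1, the kinase of mitosis, had 21.5, 22.8 and 29.4 CPM in input and 11.7, 9.74 and 11.3 CPM in the p-UPF1 IP, a log2 fold change of -1.18 ± 0.14 (edgeR adjusted p = 4.23e-05). Cdk2, the kinase of S phase, had 4.17, 3.97 and 4.78 CPM in input and 6.27, 4.67 and 5.35 CPM in the p-UPF1 IP. Its groups overlapped, and 0.32 ± 0.16 did not pass. Cdk4, the kinase of the D-type cyclins, was lower at -0.23 ± 0.07 (edgeR adjusted p = 0.0185), and turned to 0.18 with library totals, where it did not pass. Cdk5, which is active mainly in neurons, did not pass at -0.16 ± 0.14 (0.25 with library totals).

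Of the 5 transcription CDKs, 1 was higher and 3 were lower. Cdk9, the kinase of P-TEFb, had 6.39, 6.29 and 5.34 CPM in input and 30.8, 27.6 and 27.3 CPM in the p-UPF1 IP. This gave a log2 fold change of 2.25 ± 0.10 (edgeR adjusted p = 2.53e-08). Cdk7, the kinase of TFIIH, had 7.52, 7.94 and 8.64 CPM in input and 3.9, 4.25 and 4.93 CPM in the p-UPF1 IP, a log2 fold change of -0.88 ± 0.14 (edgeR adjusted p = 0.000266). Cdk12, which phosphorylates elongating polymerase, was lower at -0.85 ± 0.09 (edgeR adjusted p = 1.47e-05), and its relative Cdk13 did not pass at -0.02 ± 0.08 (0.38 with library totals). Cdk8, the Mediator kinase, was lower at -0.26 ± 0.10 (edgeR adjusted p = 0.0424). That call was lost under each alternative except the fit without a filter, and with library totals the value turned to 0.14.

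The CDK inhibitors block cyclin and CDK complexes, and 2 of the 3 were enriched. Cdkn1b, which encodes p27, had 18.6, 18.3 and 19.4 CPM in input and 41.3, 36.8 and 39.3 CPM in the p-UPF1 IP, a log2 fold change of 1.06 ± 0.08 (edgeR adjusted p = 8.58e-07). Cdkn2c, which encodes the Cdk4 and Cdk6 inhibitor p18, had 1.13, 1.21 and 1.08 CPM in input and 4.24, 3.43 and 4.79 CPM in the p-UPF1 IP, a log2 fold change of 1.86 ± 0.22 (edgeR adjusted p = 4.16e-05). Each p-UPF1 IP library of both genes lay above every input library. Cdkn1c, which encodes p57, held 0 to 3 counts in each input and p-UPF1 IP library and did not pass (edgeR adjusted p = 0.0619, or 0.0341 with library totals).

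The Cdc25 phosphatases remove the inhibitory phosphates that Wee1 places on CDKs. Cdc25a, the member that acts at the G1 to S transition, had 4.65, 5.36 and 4.54 CPM in input and 31.2, 31.1 and 28.6 CPM in the p-UPF1 IP. This was a log2 fold change of 2.64 ± 0.09 (edgeR adjusted p = 6.52e-09). The mitotic phosphatases did not pass. Cdc25b was at 0.12 ± 0.17, and Cdc25c had 2.39, 1.79 and 2.73 CPM in input and 1.69, 1.78 and 1.83 CPM in the p-UPF1 IP, at -0.38 ± 0.25 (0.03 with library totals). Wee1 was higher at 0.39 ± 0.12 (edgeR adjusted p = 0.0161), from 5.48 to 5.91 CPM in input and 6.86 to 7.96 CPM in the p-UPF1 IP.

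**Figure D2:**
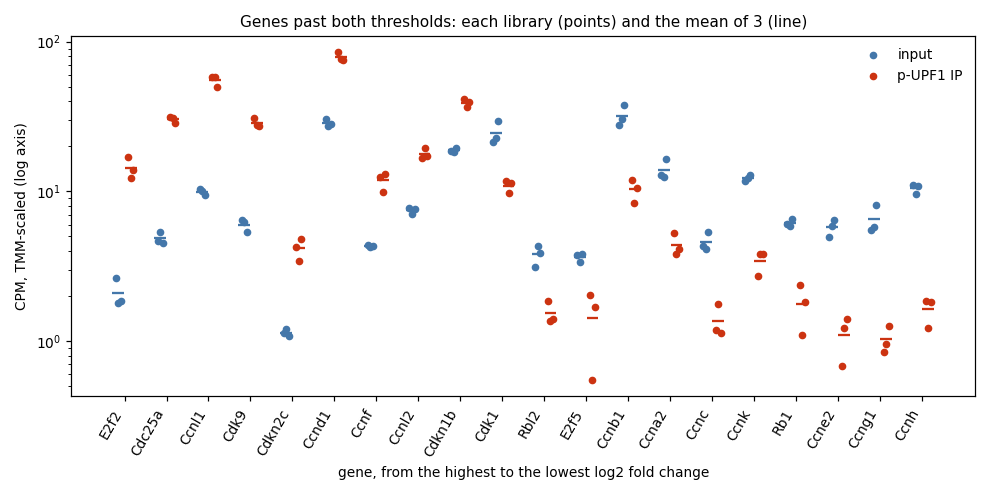
TMM-scaled CPM (log axis) of the 9 enriched and 11 depleted genes in each input and p-UPF1 IP library (points) with the mean of 3 (line), from the highest to the lowest log2 fold change. The means run from E2f2 at 2.10 CPM in input and 14.4 CPM in the p-UPF1 IP to Ccnh at 10.5 and 1.64 CPM. The genes were picked by both thresholds on these values.

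The study lists 7 of the 48 genes as NMD targets, namely E2f1, E2f7, Tfdp2, Ccnd1, Ccng2, Ccnl2 and Cdkn1b. By summed counts all 7 were higher over input and 3 were enriched (Ccnd1, Ccnl2 and Cdkn1b), where 26.3% of all genes were higher and 17.2% enriched. That list was chosen partly on these libraries, so it is not independent evidence of the direction. Over the rIgG IP, a comparison given below, Ccnd1 and Cdkn1b were higher. There E2f1, E2f7, Tfdp2, Ccng2 and Ccnl2 did not pass.

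Other genes of the same processes, taken as lists, were compared in the same way. Of 34 DNA replication genes, such as those of the MCM helicase and the GINS complex, 15 were higher and 12 lower (median 0.15), where 26.3% of all genes were higher and 35.7% lower. Of 26 mitosis genes, 8 were higher and 10 lower (median -0.08). Of 31 other cyclin and CDK genes, 27 were tested, 6 were higher and 10 lower (median -0.33). Each list thus held genes on both sides. Their medians lay above the -0.42 of all genes, a value that moved to -0.11 with filterByExpr.

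Levels in input were compared between genes per length, as CPM per kb of the coding transcript with the longest coding region. On this scale Cdk4 stood at 20.8, Ccnb1 at 12.9, Tfdp1 at 8.48, Ccnd1 at 7.64, Ccnh at 6.09 and Cdk1 at 5.61, with the shared sequence of Ccnb1 and Tfdp1 as given above. Near the lower end stood E2f2 at 0.442, Cdkn2c at 0.461 and Rbl1 at 0.638, and Cdkn1c lay lowest at 0.037. The enriched genes therefore spanned the range of input levels, from E2f2 and Cdkn2c near its lower end to Ccnd1 near its upper end.

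The p-UPF1 IP was also compared with the rIgG IP, the control for RNA that sticks to antibody or beads. This comparison shares its p-UPF1 IP libraries with that over input. Its depth was low, since 9 of the 48 genes had 0 counts in every rIgG IP library, 18 had 1 to 3 counts over all 3 libraries, and no gene had more than 27. Of 45 genes tested, 12 were higher (26.7%, against 18.5% of 12033 genes) and 2 lower (4.44%, against 5.56%). Of the 12, 3 had 0 counts in every rIgG IP library and so entered the test through the p-UPF1 IP alone. The median log2 fold change was 1.17 for the 45 genes and 0.91 for all genes. The number of higher genes fell to 6 with DESeq2, to 7 with RLE factors or filterByExpr, and to 8, 9 and 6 without rIgG IP replicates 1, 2 and 3.

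Of the 12, the genes with 4 or more rIgG IP counts were Ccnd1, Ccnt1, Ccnt2 and Cdkn1b. Ccnd1 had 11, 3 and 1 counts in the rIgG IP libraries against 500, 560 and 534 in the p-UPF1 IP libraries, a log2 fold change of 2.29 ± 0.32 (edgeR adjusted p = 8.05e-06). Cdkn1b had 3, 2 and 2 counts against 244, 268 and 279, a log2 fold change of 2.36 ± 0.42 (edgeR adjusted p = 0.00014). Ccnt2 was at 2.35 ± 0.52 (edgeR adjusted p = 0.00159). These 3 genes were also higher over input, whereas Ccnt1, at 1.19 ± 0.37 (edgeR adjusted p = 0.0215), was higher over input only with library totals. Its call over the rIgG IP was lost with RLE factors, DESeq2, filterByExpr and each rIgG IP library left out.

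For the higher genes with 1 to 3 rIgG IP counts the ratio is given with its exact 95% counting interval. It was 28 (5 to 1107) for Cdc25a, which had a single rIgG IP count, and 13.2 (3.62 to 109) for Cdk9. The ratios of Ccnf, E2f6 and E2f2 were 5.45 (1.49 to 45.2), 5.4 (1.48 to 44.9) and 4.39 (1.49 to 21.4). The calls of Ccnf, E2f6 and E2f2 were lost with RLE factors, DESeq2 and filterByExpr. Those of Ccnf and E2f2 were also lost without any single rIgG IP library, and that of E2f6 without replicate 2 or 3. Among genes with no rIgG IP count, Ccnl1 showed p-UPF1 IP levels at least 4.45-fold higher, taking 3 counts per rIgG IP library as the floor. Cdk5 and Cdkn2c also passed, but like Ccnl1 they entered the test through the p-UPF1 IP alone, so no p is given. Their p-UPF1 IP levels lay under that floor, so no fold is given. Both calls were lost with DESeq2 and without any single rIgG IP library.

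Ccnb1 and Ccnk were lower in the p-UPF1 IP than in the rIgG IP. Ccnb1 had 18, 9 and 0 counts in the rIgG IP libraries against 71, 61 and 75 in the far deeper p-UPF1 IP libraries, a log2 fold change of -1.49 ± 0.41 (edgeR adjusted p = 0.0089). Ccnk had 6, 4 and 0 counts against 16, 28 and 27, at -1.61 ± 0.59 (edgeR adjusted p = 0.0463). Neither passed without rIgG IP replicate 1, and Ccnk also failed without rIgG IP replicate 2 or p-UPF1 IP replicate 1.

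**Figure D3:**
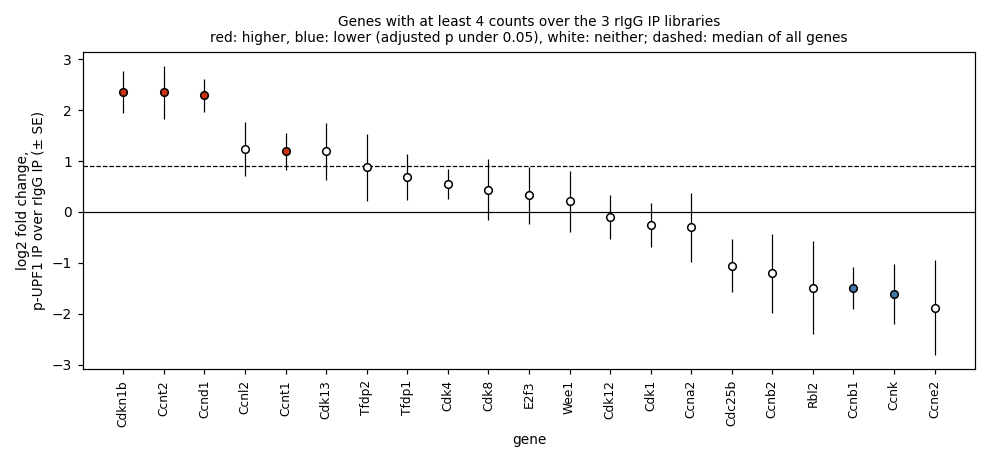
Log2 fold change between the p-UPF1 IP and the rIgG IP (y axis, bars are SE) of the genes with at least 4 counts over the 3 rIgG IP libraries. Red points passed as higher, blue as lower and white as neither, and the dashed line is the median of all genes at 0.91. Cdkn1b, Ccnt2 and Ccnd1 stand highest, and Ccnb1 and Ccnk passed as lower.

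The rIgG IP was set against input to see whether the control recovered these RNAs unevenly. It shares its input libraries with the first comparison and its rIgG IP libraries with the second. Among all genes 0.584% of 16280 were higher and 0.313% lower. With edgeR 0 of 45 E2F, cyclin and CDK genes were called, 1 was higher and 7 lower at an unadjusted p under 0.05, and DESeq2 called 1 higher (Cdc25b) and 0 lower. Ccnl1, with 0 counts in each rIgG IP library and 224 to 239 in the input libraries, entered this test through input alone. It came nearest to a call. It passed as lower with filterByExpr, without a filter, with all 9 libraries in one fit and without input replicate 2.

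The deposited counts are per transcript, so the p-UPF1 IP was next compared with input by annotated transcript class, summing the counts of a gene's coding, NMD-annotated or retained-intron transcripts. Short fragments seldom tell these transcripts apart. In Ccnl1, 8.15% of the 35-nt windows of ENSMUST00000129002.7 are absent from the coding transcripts, and in Ccnl2 8.44% of those of ENSMUST00000126346.1. The split between classes therefore rests on how Salmon shared out reads. Replicates spread more at this level, with a biological coefficient of variation of 45.3% for classes against 12.4% for summed genes.

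NMD-annotated transcripts were tested in 11 of the 48 genes, of which 4 were higher and 1 lower, where 18.7% of 2353 genes with such transcripts were higher and 16.9% lower. With library totals 5 were higher and 0 lower. Ccnl2, 1 of the 4, stood at 0 in each input library and so entered the test through the p-UPF1 IP alone. The NMD-annotated transcripts of Ccnl1, which end at the premature stop shown above, had counts of 113, 57 and 156 in input, against 332, 388 and 337 in the shallower p-UPF1 IP libraries. In TMM-scaled CPM this was 4.81 ± 2.05 against 49.9 ± 4.31 (SD, n = 3), a log2 fold change of 3.37 ± 0.32 (edgeR adjusted p = 0.000305). They made up 47.3%, 25.4% and 65.8% of what the gene held in input, against 97.4%, 91.9% and 95.5% in the p-UPF1 IP. The shares did not overlap, and the exact two-sided permutation p of 0.1 is the smallest that 3 against 3 libraries can give. The coding transcripts of Ccnl1 did not pass (log2 fold change -0.47 ± 0.66), and its retained-intron transcripts were lower (-2.66 ± 0.46, edgeR adjusted p = 0.00418).

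The NMD-annotated transcript of Ccnl2 stood at 0 in each input library, against 56, 82 and 74 counts in the p-UPF1 IP. With 3 counts per input library as the floor its level was at least 73.8-fold higher. Since it entered the test through the p-UPF1 IP alone, this is given as a description with no p, and it also held 0, 5 and 0 counts in the shallow rIgG IP libraries. In rIgG IP replicate 2, which held the 5, 3 counts correspond to 14.6 CPM. In the p-UPF1 IP the transcript stood at 9.02 to 10.8 TMM-scaled CPM, so a level above the rIgG IP is not shown. Summed over its transcripts, Ccnl2 did not pass over the rIgG IP, at 1.24 ± 0.53 (edgeR adjusted p = 0.0914). The NMD-annotated transcript made up 56.6%, 57.7% and 60.2% of the counts of Ccnl2 in the p-UPF1 IP. The coding transcripts of Ccnl2 did not pass at -0.27 ± 0.55, and neither did its retained-intron transcripts at -0.01 ± 0.44.

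**Figure D4:**
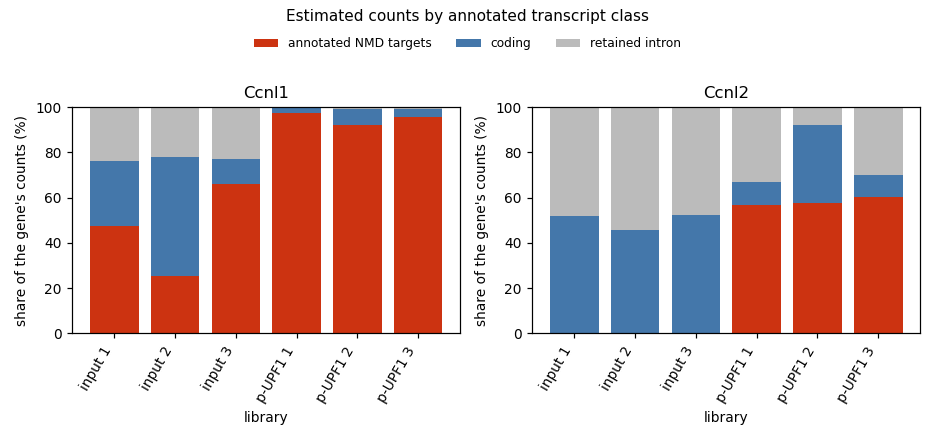
Share of the estimated counts of Ccnl1 and Ccnl2 (y axis, %) assigned to NMD-annotated (red), coding (blue) and retained-intron (grey) transcripts in each input and p-UPF1 IP library. The red share of Ccnl1 is 25.4% to 65.8% in input and 91.9% to 97.4% in the p-UPF1 IP, and that of Ccnl2 is 0% in input and 56.6% to 60.2% in the p-UPF1 IP.

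The other NMD-annotated calls were less stable. Those of Cdk9 (counts of 7, 10 and 0 against 32, 30 and 11, edgeR adjusted p = 0.0271) and of Tfdp1 (7, 71 and 0 against 115, 130 and 53, edgeR adjusted p = 0.0453) were higher. That of Ccna2 was lower (148, 128 and 176 against 0, 13 and 15, edgeR adjusted p = 0.039). With NMD-annotated transcripts 2 genes were higher without p-UPF1 IP replicate 1 or 2. Of the fits without a single library, that without p-UPF1 IP replicate 1 gave 1 lower gene and the others gave 0. Each of these 3 lost its call when single libraries were left out, with an edgeR adjusted p of up to 0.0779, 0.112 and 0.0993.

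Coding transcripts were higher in 10 and lower in 17 of the 46 genes, where 20.4% of 12237 genes were higher and 33.0% lower. With library totals the split became 16 higher and 10 lower, and without input replicate 3 the lower genes numbered 11. The median over these coding transcripts was -0.28 on the log2 scale (-0.40 over all genes). Those of Cdk4 had counts of 749, 842 and 880 in input, against 71, 56 and 67 in the p-UPF1 IP, and were lower at 9.26 ± 2.05 against 36.9 ± 2.75 CPM (SD, n = 3) (edgeR adjusted p = 0.000158). Its retained-intron transcripts, summed, went the other way, from 139, 141 and 184 counts in input to 93, 130 and 122 in the p-UPF1 IP, a log2 fold change of 1.23 ± 0.12 (edgeR adjusted p = 0.00042). Within that class ENSMUST00000140254.7 was enriched at 1.68 ± 0.16 (edgeR adjusted p = 0.00143). ENSMUST00000135179.7 was depleted at -1.77 ± 0.47 (edgeR adjusted p = 0.0416). The NMD-annotated transcript of Cdk4 had 62, 0 and 0 counts in input against 55, 67 and 78, and did not pass (edgeR adjusted p = 0.0906). The sum of Cdk4 differed little, as given above, so its assigned classes moved apart within a nearly level gene. Retained-intron transcripts were higher in 4 genes (Ccng2, Cdk4, Cdk9 and E2f4) and lower in 4 (Ccnd1, Ccnl1, Cdk1 and E2f8) of 25, where 15.2% of 4893 genes were higher and 18.0% lower. Of the lower genes, E2f8 stood at 0 in each p-UPF1 IP library and so entered the test through input alone. The higher genes numbered 1 without input replicate 3 and 2 without p-UPF1 IP replicate 2.

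Single transcripts, the level of the deposited table, were tested with both thresholds. Of 305 transcripts of the 48 genes, 163 were tested, 19 were enriched (11.7%, against 8.55% of 42616 transcripts) and 29 depleted (17.8%, against 16.2%), and 8 genes held transcripts of both kinds. A transcript at 0 in every library of a group entered the test through the other group alone. The biological coefficient of variation was 96.7%. With library totals 25 were enriched and 18 depleted, and without input replicates 1, 2 and 3 the depleted numbered 15, 17 and 15. Among the 23 genes named in full by the rule given with the processing, the most-counted transcript was enriched in 8, depleted in 4 and passed neither way in 11. The enriched ones belonged to E2f2, E2f7, Ccnd1, Ccnf, Ccnl1, Cdk9, Cdkn2c and Cdc25a, and the depleted ones to Tfdp1, Cdk2, Cdk7 and Cdkn1b. The ranking used counts that include the p-UPF1 IP, so these numbers are partly fixed by the choice of transcript. By input alone the choice would differ for Ccnl1 (ENSMUST00000154585.7, 79, 41 and 131 counts, not called). For E2f7 it would be ENSMUST00000173471.7 (48, 44 and 60 counts), which was depleted. In Cdk2 the depleted ENSMUST00000026415.8 (70, 82 and 97 counts against 0 in each p-UPF1 IP library) has 0.227% of windows of its own. Its counterpart ENSMUST00000026416.14 was enriched (5, 4 and 0 against 35, 14 and 37 counts, edgeR adjusted p = 0.0361), so Cdk2 too is best read from its summed count.

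Among the most-counted transcripts of the 23, the share of sequence of its own was highest for those of E2f2 and Ccnd1. Outside the 23, those of Ccnb2 (100%), Rb1 (79.3%) and Ccng1 (78.7%) were depleted, and that of Wee1 (100%) did not pass. Of these depleted calls, only that of Ccng1 held with a block for the replicate number. The E2f2 transcript ENSMUST00000061721.5, with 94.7% of its windows in no other transcript of the gene, had counts of 61, 40 and 46 in input, against 101, 90 and 98 in the p-UPF1 IP (log2 fold change 2.48 ± 0.25, edgeR adjusted p = 0.00163). The Ccnd1 transcript ENSMUST00000093962.4, with 76.6%, was at 1.27 ± 0.10 (edgeR adjusted p = 0.000717). In Ccnl1, ENSMUST00000129002.7 had counts of 34, 15 and 20 in input, against 275, 294 and 232 in the p-UPF1 IP, at 5.03 ± 0.38 (edgeR adjusted p = 0.00074), with 4.69% of windows of its own. ENSMUST00000154585.7, which ends at the same premature stop, had counts of 79, 41 and 131 in input, against 46, 0 and 0 in the p-UPF1 IP, and did not pass at -0.75 ± 1.82.

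In other genes transcripts went in opposite directions. In Cdkn1b, ENSMUST00000067327.10 was enriched (88, 67 and 97 counts against 210, 243 and 219, edgeR adjusted p = 0.0003) with 48.5% of windows of its own, while ENSMUST00000204807.1 was depleted (269, 303 and 357 against 34, 25 and 60, edgeR adjusted p = 0.0269) with 1.86% of windows of its own. In Ccnt2, ENSMUST00000112570.1 went from 161, 158 and 206 counts in input to 0, 0 and 3 in the p-UPF1 IP. Its counterpart ENSMUST00000027587.14 had 0 counts in each input library and 121, 130 and 139 in the p-UPF1 IP. The latter has 0% and the former 0.648% of windows of its own, so Ccnt2 is best read from its summed count.

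Of the transcript properties measured, base composition went most with the fold change. In the coding transcript with the longest coding region, the share of codons with G or C at the third base ranged from 51.2% to 80.1% (median 64.4%) in the 9 enriched genes and from 38.5% to 59.4% (median 47.8%) in the 11 depleted genes. The ranges overlapped between 51.2% and 59.4%. Over the 46 genes Spearman's rho with the log2 fold change was 0.65 (Pearson's r 0.64), and over 12723 protein-coding genes it was 0.34 (0.28). For the GC content of the coding region rho was 0.65 and 0.40, and for that of the whole transcript 0.59 and 0.42. For the GC content of the 3′ UTR it was 0.36 over 45 of the genes and 0.45 over 12259. The trend was thus not particular to the third base. The genes share the same 6 libraries and their depth, and the part of base composition in the fold changes was not tested. The length of the 3′ UTR, a known feature of some NMD targets, had a rho of 0.04 among the 46 genes and 0.09 among all. These lengths are of the transcript with the longest coding region, which need not be the one counted. For Tfdp2 that transcript has a 3′ UTR of 0 nt and held 0 counts in every library, while its most-counted transcript has 5675 nt.

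The 30 codons at the middle of the coding region show this for the 3 genes with the highest and the 3 with the lowest log2 fold change among those called, with G or C at the third base of a codon in capitals. The genes lie, on GRCm38, at chr4:136172394-136196057 (E2f2, plus strand), chr9:109875579-109893895 (Cdc25a, plus), chr3:65946151-65958249 (Ccnl1, minus), chr4:11191354-11204675 (Ccne2, plus), chr11:40748552-40755311 (Ccng1, minus) and chr13:85189448-85212611 (Ccnh, plus), by the transcript used. Such codons number 27 of 30 in E2f2, 21 in Cdc25a and 9 in Ccnl1, and 12 in Ccne2, 15 in Ccng1 and 12 in Ccnh. Ccnl1 thus had the fewest in this stretch of all 6, although it was enriched, and over its whole coding region 51.2% of codons end in G or C.
E2f2: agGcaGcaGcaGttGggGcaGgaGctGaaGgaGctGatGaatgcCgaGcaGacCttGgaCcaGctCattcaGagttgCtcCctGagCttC
Cdc25a: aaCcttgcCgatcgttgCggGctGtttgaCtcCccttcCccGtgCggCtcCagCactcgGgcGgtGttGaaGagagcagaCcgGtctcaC
Ccnl1: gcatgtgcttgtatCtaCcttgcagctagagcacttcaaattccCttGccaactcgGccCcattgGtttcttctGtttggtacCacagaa
Ccne2: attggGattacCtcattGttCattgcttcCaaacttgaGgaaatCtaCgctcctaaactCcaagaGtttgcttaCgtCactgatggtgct
Ccng1: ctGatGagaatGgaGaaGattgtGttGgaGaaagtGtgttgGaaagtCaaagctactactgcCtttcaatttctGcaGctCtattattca
Ccnh: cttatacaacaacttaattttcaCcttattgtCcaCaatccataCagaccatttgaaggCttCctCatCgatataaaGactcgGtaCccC

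**Figure D5:**
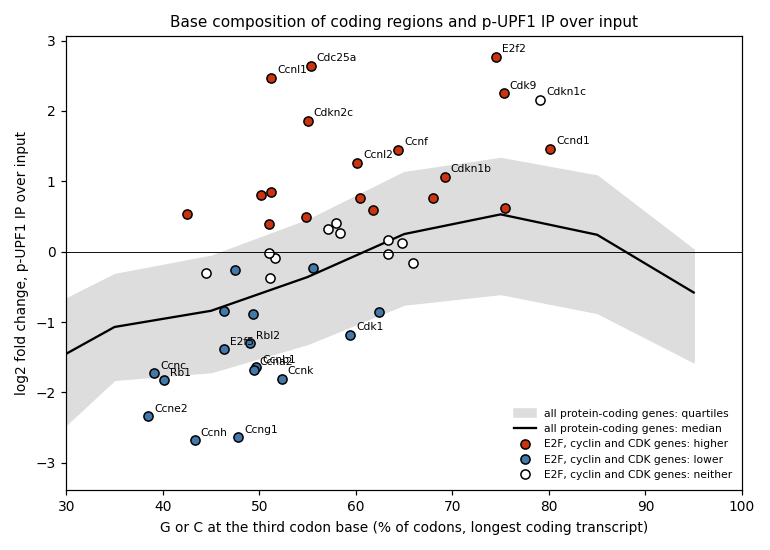
Log2 fold change in the p-UPF1 IP over input (y axis) against the share of codons with G or C at the third base (x axis, %) for the 46 genes (points, coloured by call) and for all protein-coding genes tested (line, median in bins 10 percentage points wide, shade, quartiles). The median of all genes is -1.07 between 30% and 40% and 0.53 between 70% and 80%. The 11 depleted E2F, cyclin and CDK genes lie between 38.5% and 59.4% and the 9 enriched ones between 51.2% and 80.1%, with Ccnl1 and Cdc25a high at 51.2% and 55.3%.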

How the data were processed

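RIP-seq of N2A cells was analysed from 1 table of 9 libraries. Per the paper's methods and the submitters' processing notes, the authors demultiplexed with bcl2fastq, trimmed with fastp (reads of at least 35 nt kept), mapped to GRCm38 with STAR 2.7.0f and quantified transcripts with Salmon 0.13.1. Estimated counts of transcripts, rounded to whole numbers, were deposited for each library without scaling or pooling. Columns were matched to libraries by name.

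Counts were summed per gene symbol and per annotated transcript class (GENCODE M21, GRCm38, a release before that of the authors). Groups were compared with edgeR 4.0.16 in R 4.3.3 (TMM, quasi-likelihood test, 6 libraries a comparison, summed count of at least 10). Thresholds were a Benjamini-Hochberg adjusted p under 0.05 and, for enriched or depleted, a log2 fold change beyond 1 in size. SE was the log2 fold change over the root of F. Shares of 3 against 3 libraries were compared by an exact permutation test. Replicate libraries differed by more than sampling noise (chi-square per degree of freedom 3.62 to 15.6), so none was counted as a copy. The procedure was tested on simulated data, in which false calls of summed genes exceeded the nominal rate.

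Named in full were, per role, the genes with the highest and the lowest log2 fold change among those with at least 10 counts in every input and p-UPF1 IP library, and the genes that the study lists as NMD targets. Of those genes the most-counted transcript and called ones were considered. The values of other genes of the 48, and the transcript classes printed, were picked after they were seen, and the 6 genes whose codons are printed by their log2 fold change. The genes and lists were chosen with earlier results of these data known. Alternatives were RLE factors, library totals alone, DESeq2 1.42.0, filterByExpr, no filter, a block for the replicate number, a joint fit of all 9 libraries, the 10 most-counted features left out, and each library left out in turn. Other RNA-seq of the study was not used here. Some markers and a stop codon window are not reported here.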

Additional observations from a re-analysis of the deposited data

How the results depend on the processing

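Over input, the 34 called genes kept the direction of their log2 fold change with RLE factors, DESeq2, filterByExpr, no filter, all 9 libraries in one fit, the 10 most-counted features left out and each library left out. With library totals Tfdp1 (0.38), Ccnt1 (0.31), Cdk4 (0.18), Cdk8 (0.14) and Cdk13 (0.38) turned positive, as did Rbl1, Cdk5 and Cdc25c, and 15 genes were enriched. The uncalled Tfdp1, Cdk13 and Cdc25b, which lay near 0, also crossed it when some single libraries were left out. With library totals E2f4, E2f8, Tfdp1, Ccne1, Ccnt1, Cdk2, Cdk13, Cdkn1c and Cdc25b passed as higher. Calls lost under some alternatives were those of Ccnd3, Ccng2, Cdk4, Cdk8, Wee1 and Ccnb2. With each library left out, higher genes numbered 16 to 19, lower 14 to 15, enriched 9 and depleted 10 to 11.

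Over the rIgG IP, higher genes numbered 7 with RLE factors or filterByExpr and 6 with DESeq2, lower genes 3 with DESeq2, and 6 to 12 higher and 0 to 2 lower with each library left out. For the rIgG IP over input, DESeq2 gave 1 higher gene, and filterByExpr, no filter and all 9 libraries in one fit gave 1 lower gene (Ccnl1), with 0 higher and 0 to 1 lower as each library was left out.

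Among transcripts, 18 were depleted with library totals, and 17 to 19 were enriched and 15 to 31 depleted with each library left out. By class with library totals, coding transcripts were higher in 16 and lower in 10 genes, and NMD-annotated ones lower in 0. With each library left out, the coding class gave 9 to 12 higher and 11 to 16 lower genes, the NMD-annotated class 2 to 5 and 0 to 1, and the retained-intron class 1 to 3 and 3 to 5. The causes of these changes were not tested.

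No pairing by replicate number was seen between input and p-UPF1 IP, where the deviations of same-numbered libraries had correlations of -0.003, 0.0962 and 0.0975. Such values cannot exclude that same-numbered libraries came from the same material, and the labels do not say. With the replicate number as a block, Ccnd3 and Cdk8 lost their calls over input, and 6 genes were higher and 0 lower over the rIgG IP, where E2f2, E2f6, Ccnf, Ccnt1, Cdk5, Cdkn2c, Ccnb1 and Ccnk lost their calls. In the block fit 8 transcripts were enriched and 4 depleted, and by class 10 genes were lower for coding, 0 lower for NMD-annotated and 2 higher for retained-intron transcripts. Among the most-counted transcripts described, the block fit lost the depleted calls of Tfdp1, Cdk2, Cdk7 and Cdkn1b and the enriched calls of Ccnf, E2f7 and Cdkn2c. Depth limits the comparisons with the rIgG IP.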
